A study of Drosophila melanogaster with 3 samples.

Results

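The genes described here are 8 genes of Drosophila melanogaster that encode helix-loop-helix (HLH) proteins, namely proneural factors, their partner and repressors: ac, sc, ase, ato, da, emc, hry and net. They are 8 of 13968 protein-coding genes, taken by name, by a choice made with earlier results of these data known. They were examined in chromatin immunoprecipitation and sequencing of whole prepupae, males and females pooled, labelled 24 hours. All samples came from 1 transgenic line in which the protein of CG9139 (Rabex-5, an endosomal exchange factor for the GTPase Rab5) carries GFP at its C-terminus, and chromatin was recovered with an anti-GFP antibody. The 3 biological replicates formed the only group, a line without the tag was not analysed here, and no test between groups was possible. The lists give enrichment over a control alignment and no read counts, so the depth behind each value is unknown. In whole animals, strong enrichment in a few cells cannot be told apart from weak enrichment in many.

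HLH proteins bind DNA in pairs through a basic region next to the HLH domain, at a short sequence called the E-box. The proneural proteins Achaete (ac), Scute (sc), Asense (ase) and Atonal (ato) pair with Daughterless (da), the broadly expressed partner, and switch on genes that set aside sensory organ and neural precursor cells. Extramacrochaetae (emc) has no basic region and holds proneural proteins or Daughterless in pairs that cannot bind DNA. Hairy (hry, long known as h) is a DNA-binding repressor that works with the corepressor Groucho and represses ac, and Net (net) is a bHLH repressor that keeps rhomboid off between the wing veins. In prepupae, bristle, wing and eye precursors of the adult are being patterned and formed.

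The window of a gene was its body and 10 kb to each side. A peak is a region of the authors' list kept after thresholding by the irreproducible discovery rate (IDR list, 4934 regions), and a candidate is a region of their longer list from the pooled reads of the 3 replicates (30000 regions). The following sequences are the DNA at the summit of the strongest peak in each window that held one, with 75 bp to each side, and for hry also the stronger of its peaks at the promoter, which was added after its values were seen. They are from the Release 6 (dm6) genome, plus strand, 5′ to 3′, and they show where signal gathered in these loci. Capitals mark the E-box CANNTG, and at emc the word TATAAA before the transcription start site (TSS).
emc promoter, chr3L:749329-749479: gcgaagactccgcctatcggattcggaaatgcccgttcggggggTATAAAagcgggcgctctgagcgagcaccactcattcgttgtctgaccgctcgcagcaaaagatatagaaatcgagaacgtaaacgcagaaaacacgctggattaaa
hry promoter, chr3L:8675667-8675817: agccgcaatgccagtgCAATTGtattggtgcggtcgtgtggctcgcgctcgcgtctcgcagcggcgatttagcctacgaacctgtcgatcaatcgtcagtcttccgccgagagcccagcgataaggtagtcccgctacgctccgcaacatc
hry upstream, chr3L:8668335-8668485: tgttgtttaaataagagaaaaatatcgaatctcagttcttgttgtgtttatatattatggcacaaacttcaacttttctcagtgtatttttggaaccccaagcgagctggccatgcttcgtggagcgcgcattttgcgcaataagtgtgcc
net upstream, chr2L:91935-92085: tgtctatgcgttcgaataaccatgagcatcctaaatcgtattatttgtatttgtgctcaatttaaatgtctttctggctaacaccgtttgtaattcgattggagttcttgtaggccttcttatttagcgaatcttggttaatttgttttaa
ac upstream, chrX:361556-361706: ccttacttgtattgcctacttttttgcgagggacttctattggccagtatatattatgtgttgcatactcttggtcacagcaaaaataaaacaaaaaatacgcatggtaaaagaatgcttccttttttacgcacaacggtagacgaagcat
ase upstream, chrX:452836-452986: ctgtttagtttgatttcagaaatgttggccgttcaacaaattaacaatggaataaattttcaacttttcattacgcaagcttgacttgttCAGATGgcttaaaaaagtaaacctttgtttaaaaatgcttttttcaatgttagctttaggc
The emc and hry promoter windows contain a TSS of their gene, at base 72 and base 93. The other 4 windows contain none of the TSSs of their gene.

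Most peaks in the 8 windows lay at the repressor genes emc, hry and net. The 8 windows held 13 peaks, of which emc had 5, hry 4, net 2, ac 1 and ase 1, and sc, ato and da had none. A window with a peak is common, since 52.2% of protein-coding genes had one, and 5 of 8 members is near that share. Counting only peaks among the strongest candidates of any pair of replicates, 3 members had one, and the windows of ac and ase had none. Under that rule 39.4% to 41.1% of protein-coding genes had one, so 3 of 8 is again near the share of all genes. At least 4 peaks, as at emc and hry, were found in 8.63% of genes. The promoter peaks of hry overlap. With overlapping regions counted once, hry had 3 peaks and the 8 windows 12. The median gene had 1 peak. The 3 repressor genes had 11 peaks in 72.6 kb of window, or 15.2 per 100 kb, and the 4 proneural genes had 2 in 86.0 kb, or 2.33 per 100 kb, against 3.59 over the 7 chromosome arms. The arms include Y, where no candidate lay, and stretches outside gene windows, so 3.59 is not a density of gene windows. The split by role is a description of these genes and was not tested.

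**Figure D1:**
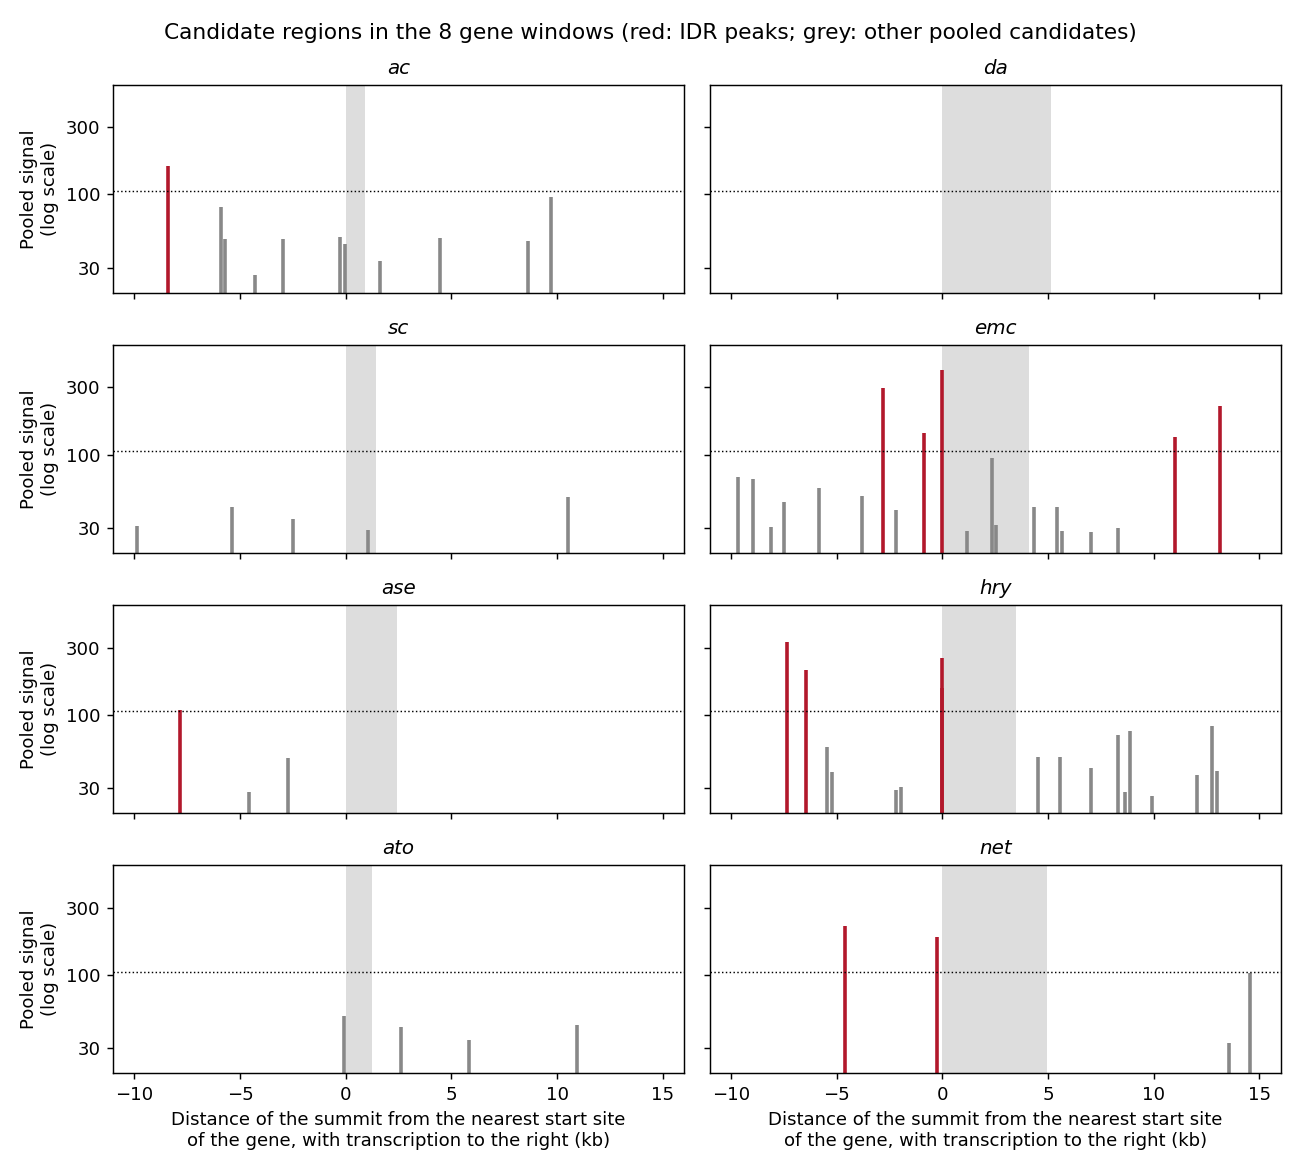
Pooled candidates in the window of each gene. The x axis is the distance of the summit from the nearest start site of the gene in kb, with transcription to the right, the y axis is the authors' pooled signal on a log scale, red lines are peaks of the IDR list, grey lines are other candidates, the grey band is the gene body, and the dotted line is the lowest signal of the IDR list, 105. The 2 hry promoter peaks fall on each other because each lies close to a start site of its own; emc and hry are dense in candidates and da has none.

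**Figure D2:**
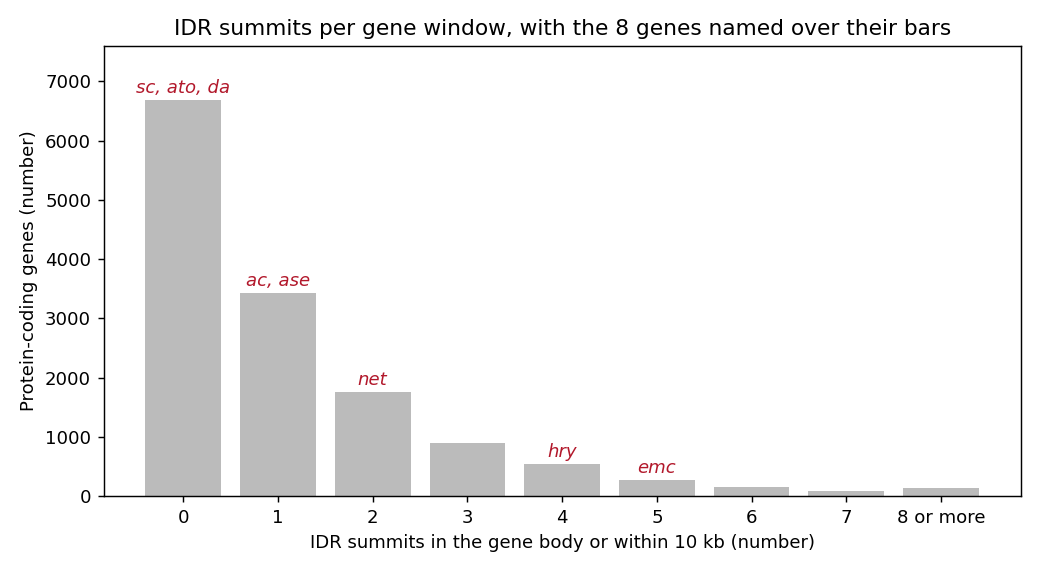
Number of protein-coding genes (y axis) by the number of IDR summits in the gene body or within 10 kb (x axis). The 8 genes are named over the bar they belong to, with sc, ato and da among the 6683 genes without a summit and emc among the 266 with 5.

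In each replicate, too, the repressor genes held most of the strong regions. A replicate's strongest candidates are its 4934 regions of highest signal, as many as there are peaks. In the emc window lay 5, 4 and 4 of them in replicates 1, 2 and 3 (4.33 ± 0.577, SD, n = 3). In the hry window lay 5, 4 and 3 (4 ± 1, SD, n = 3), and in the net window 1, 3 and 3 (2.33 ± 1.15, SD, n = 3). At ac there were 1, 1 and 0, and at da 1, 0 and 0. None was found at sc, ase or ato in any replicate. The 3 repressor genes together had 11, 11 and 10 strongest candidates and the 4 proneural genes 1, 1 and 0, so the repressor genes had more in every replicate. The mean over all protein-coding genes was 1.22, 1.24 and 1.17 per window. These lists feed the IDR list, so they are not independent of the peaks.

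**Figure D3:**
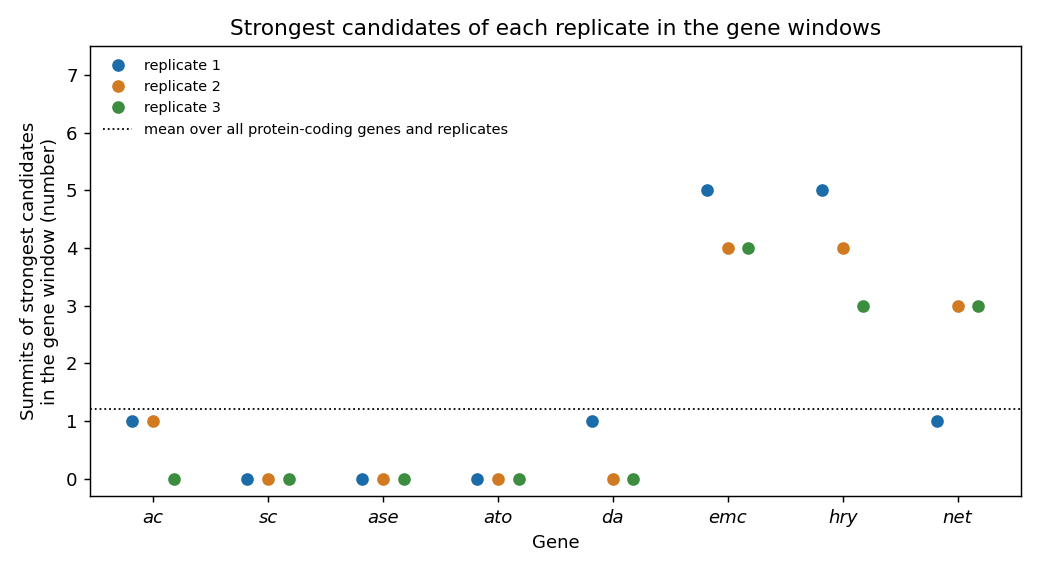
Number of strongest candidates with a summit in the window of each gene (y axis), for each gene (x axis) and replicate (colours). The dotted line is the mean over all protein-coding genes and replicates; emc and hry lie above it in every replicate, and sc, ase and ato are at 0.

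Of the members, emc had the most peaks and the strongest one. The relative signal is a replicate's signal divided by its median over all peaks, so that 1 is a typical peak, and a rank of 1 is the highest signal of a list. The gene (FBgn0000575) lies at 3L 749400 to 753492 on the plus strand. Its strongest peak, at 3L 749286 to 749488, had its summit 4 bp downstream of the TSS, in the 5′ UTR. It ranked 527 of 4934. Its relative signal was 1.26, 2.85 and 2.45 in replicates 1, 2 and 3 (2.18 ± 0.826, SD, n = 3). Replicate 1 was the low one, where the region ranked 1680 of 30000 against 241 and 388 in the others.

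A pair of peaks lay upstream of emc, within an annotated intron of hng3, a gene that spans emc. The one 2821 bp upstream, at 3L 746450 to 746656, had relative signals of 2.05, 1.52 and 1.09 (1.56 ± 0.482, SD, n = 3) and ranked 947. Here replicate 1 was the highest, the reverse of the emc promoter. The one 864 bp upstream, at 3L 748321 to 748750, had 0.796, 0.620 and 0.925 and ranked 3121. The last pair was intergenic, beyond the 3′ end of emc, with hng3 having the nearest TSS. The peak 13130 bp from the emc TSS, at 3L 762475 to 762601, was the steadiest at emc, with 1.13, 1.32 and 1.19 (1.21 ± 0.0990, SD, n = 3). The peak 10986 bp from the TSS, at 3L 760171 to 760600, reached the strongest candidates in replicate 2 alone, with relative signals of 0.539, 1.04 and 0.611. The window held 20 candidates in all, more than in 97.0% of protein-coding genes. The strongest outside the IDR list lay 2336 bp into emc, in an intron, and ranked 5690.

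At hry, signal lay at the promoter and about 7 kb upstream. The gene (FBgn0001168) lies at 3L 8675759 to 8679253 on the plus strand and has 2 annotated TSSs. The strongest peak was intergenic, 7349 bp upstream, at 3L 8668331 to 8668493, and ranked 769. Its relative signal was 1.39, 2.36 and 1.98 (1.91 ± 0.488, SD, n = 3), above a typical peak in every replicate. In replicate 1, a weaker candidate with its summit nearer to that of the peak had 1.04, close to a typical peak. With the candidate of nearest summit the mean was 1.79. A neighbour 6431 bp upstream, at 3L 8669214 to 8669377, had 1.19, 1.20 and 0.990 (1.12 ± 0.116, SD, n = 3) and ranked 1776.

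The promoter of hry carried 2 peaks with summits 200 bp apart, at 3L 8675733 to 8675842 and 3L 8675837 to 8676039. Their summits lay 17 and 13 bp upstream of a TSS each, the second within an annotated 5′ UTR, and they ranked 1270 and 2756. The regions overlap, and in each replicate the same candidate was the strongest one over both. Its relative signal was 0.662, 1.60 and 2.00 (1.42 ± 0.687, SD, n = 3), with ranks of 4459, 997 and 596. Replicate 1 was again the low one and there lay close to the end of its strongest candidates. Replicates 1 and 2 also listed a weaker candidate with its summit nearer to the second peak, with relative signals of 0.253 and 1.04 and ranks of 17785 and 2280, and replicate 3 listed none. With the candidate of nearest summit, the mean of the second peak was 1.10 in place of 1.42. The window held 18 candidates, more than in 96.0% of genes, and of the 14 outside the IDR list the strongest, 12783 bp downstream of the nearest TSS, ranked 6849.

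Both peaks of net lay upstream of its TSS. The gene (FBgn0002931) lies at 2L 82421 to 87387 on the minus strand. The promoter peak, at 2L 87429 to 87858 with its summit 257 bp upstream, was intergenic, ranked 2147 and had relative signals of 1.02, 0.831 and 1.15 (0.998 ± 0.160, SD, n = 3). It was that of a typical peak in each replicate. The peak 4623 bp upstream, at 2L 91795 to 92224, ranked 1601, and the TSS nearest to it was that of Zir, at 2729 bp. Its relative signal was 1.57 in replicate 2 and 1.26 in replicate 3, where it ranked 1021 and 1510. Replicate 1 did not list it at all, and the nearest candidate summit of that replicate was 2542 bp away. Of all peaks, 0.628% had no candidate in replicate 1, and among the 1601 peaks of rank 1601 or better 5 had none. The net window held 4 candidates, more than in 44.4% of protein-coding genes. The strongest candidate outside the IDR list in this window lay in coding sequence of galectin, ranked 5151, and was also missing from replicate 1.

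**Figure D4:**
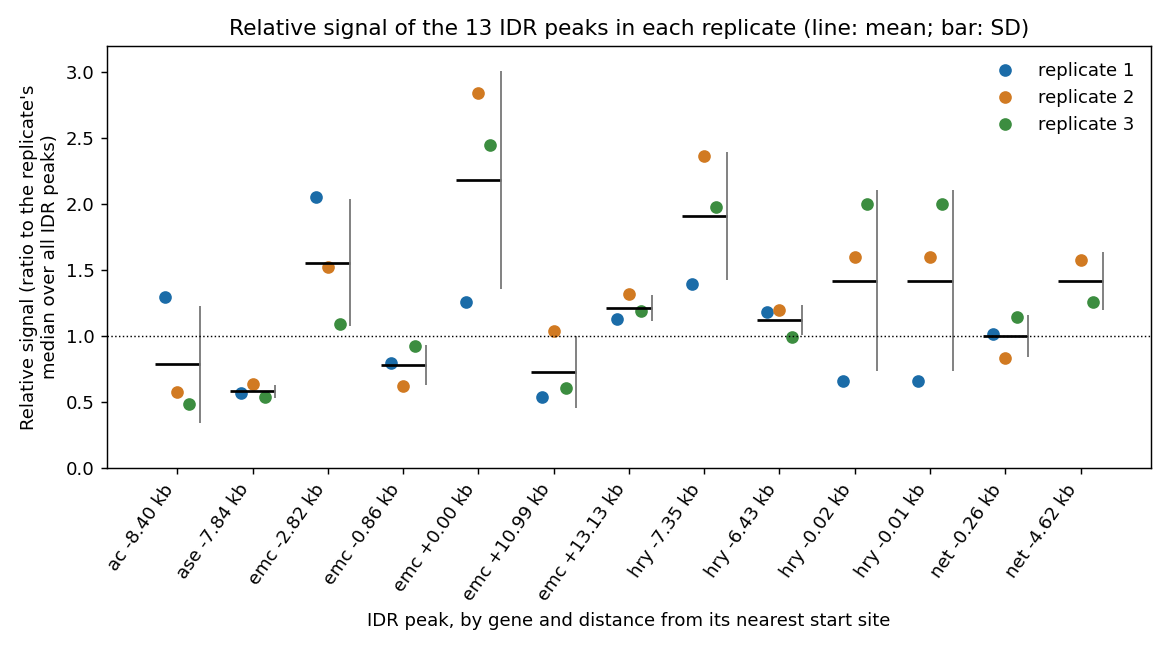
Relative signal (y axis, ratio to the replicate's median over all IDR peaks) of the 13 peaks (x axis, by gene and distance from its nearest start site). Points are replicates by colour, black lines are means and grey bars are the SD over the replicates that listed the region. Replicate 1 is the lowest at the emc and hry promoters, at hry 7.35 kb upstream and at both emc peaks beyond its 3′ end. It is the highest at ac and at emc 2.82 kb upstream, and it has no point at the upstream net peak. The 2 hry promoter peaks carry the same points, since the same candidates were the strongest over both.

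In the achaete-scute complex, the cluster of proneural genes on the X chromosome, peaks lay away from the promoters of ac, sc and ase. The window of ac (FBgn0000022, X 370031 to 370947) held 1 peak, at X 361416 to 361845, 8400 bp upstream of the TSS and 386 bp past the end of y, the neighbouring yellow pigment gene. It ranked 2650. Its relative signal was 1.29 in replicate 1 and 0.579 and 0.483 in replicates 2 and 3 (0.785 ± 0.443, SD, n = 3), and only in replicate 1 was it among the strongest candidates. The ac promoter had weak candidates, at 17 and 287 bp upstream, with pooled ranks of 14964 and 13025. The ac window held 11 candidates, more than in 85.7% of protein-coding genes. Of the 10 ac candidates outside the IDR list, the strongest lay 9712 bp downstream and ranked 5572.

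The peak at ase (FBgn0000137, X 460747 to 463176) lay 7836 bp upstream, at X 452696 to 453125. It ranked 4773 of 4934, near the end of the IDR list. The replicates gave it closely similar low values, with relative signals of 0.566, 0.638 and 0.539 (0.581 ± 0.0513, SD, n = 3). None of them had it among the strongest candidates. No peak was found in the window of sc (FBgn0004170, X 396060 to 397497), and the nearest lay 34429 bp from the gene. Its 5 candidates had pooled ranks from 12839 to 26079, and none was listed in all 3 replicates. The strongest of them was nearer to the TSS of l(1)sc, another proneural gene of the complex. Replicate 2 alone also listed candidates 120 bp upstream and 93 bp downstream of the sc TSS, at ranks 5909 and 16255. Neither overlapped a pooled candidate.

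Over the 93.1 kb from the start of ac to the end of ase there were 3 peaks, or 3.22 per 100 kb against 3.59 over the 7 arms, and 31 candidates, or 33.3 per 100 kb against 21.8. Besides the ase peak, these were a peak at X 443979 to 444408 with relative signals of 0.979, 1.01 and 0.998 (0.994 ± 0.0143, SD, n = 3), and one at X 448417 to 448533 with 0.394, 0.840 and 0.710. Both lay farther than 10 kb from sc and ase. The peaks of the complex, that of ac included, lay in annotated introns of CG32816, which spans X 316576 to 470726.

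Neither ato nor da had a peak. At ato (FBgn0010433, 3R 8278052 to 8279274) the nearest peak lay 13398 bp from the gene. The strongest of its 4 candidates had its summit 73 bp upstream of the TSS and ranked 12657. It was listed in replicates 2 and 3, at ranks 10630 and 11252, and not in replicate 1.

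For da (FBgn0267821, 2L 10388105 to 10393228) the pooled list and the single replicates differed. The pooled list held no candidate in its window, while 87.5% of protein-coding genes had at least 1, and the nearest was 15071 bp from the gene. The replicates listed 6, 7 and 1 candidates there, and none of these 14 overlapped a pooled candidate. Over all candidates of replicates 1, 2 and 3, 25.8%, 29.0% and 27.9% overlapped none. At the da promoter, replicate 1 listed a summit 106 bp upstream at rank 10864, replicate 2 one 49 bp downstream at rank 6361, and replicate 3 none. The strongest of the 14 lay 1707 bp upstream of da and 136 bp from the TSS of Cdk1. It ranked 3192 in replicate 1, among the strongest candidates there, and 4.62% of replicate 1's strongest candidates overlapped no pooled candidate.

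Peaks within 500 bp of a TSS of their gene were found at emc, hry and net, 3 of 8 members, against 13.1% of protein-coding genes. The remaining 9 of the 13 peaks lay farther away. By annotation, 7 of the 13 summits were intergenic, 4 were in introns and 2 in 5′ UTRs. The 4 intronic summits lay in CG32816 or hng3, genes that span members, and none lay in an intron of a member. For 4 of the 13 summits the nearest TSS was that of another gene. The peaks ranked from 527 to 4773 with a median of 1776, and 8 lay above the median signal of the IDR list.

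Recurrence was near that of all peaks. Of the 13, 8 belonged to the strongest candidates in every replicate, against 58.0% of all peaks, and 12 overlapped some candidate in all 3, against 96.8%. The 8 were 3 peaks at emc, 4 at hry and the net promoter, and include both hry promoter peaks through the same replicate candidates. In each replicate 10 of the 13 were among the strongest. With the candidate of nearest summit, an alternative chosen after the data were seen, it was 7 of 13 in every replicate, against 52.5% of all peaks, and 9, 10 and 10 in replicates 1, 2 and 3. Of the 65 pooled candidates in the windows, 13 were peaks, or 20%, against 16.4% of all candidates. Of the other 52, 20 overlapped a candidate in all 3 replicates, or 38.5%, against 37.5% of all candidates outside the IDR list.

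Some of these peaks held the E-box that HLH proteins bind, a share not above that of all peaks. Within 100 bp of the summit, on either strand, CANNTG was found at 7 of 13, against 59.9% of all peaks and 63.7% of windows of the same 201 bp around the TSSs of protein-coding genes. Within 50 bp it was found at 2 of 13, against 1725 of all 4934 peaks. CAGCTG, a form bound by proneural pairs, was at 1, the emc peak 864 bp upstream, against 8.53% of all peaks. CAGGTG, another such form, was at none (4.62%). CACGTG and CACGCG, forms bound by Hairy and its relatives, were at none (1.91% and 5.07%), and CACNAG was at 2 (19.9%). The first of these forms, the second and the form CACGTG are cases of CANNTG and are counted under it as well. GAGAG, the word of GAGA factor sites, was at 5 (34.5%), 4 of them at emc and 1 at hry. GTGGGAA, the word of Su(H), and TATCGATA, that of the DREF factor, were at none (2.27% and 0.872%).

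In the printed emc promoter window no E-box was found, and TATAAA began 27 bp before the TSS. That word began 25 to 35 bp before the TSS at 6.26% of protein-coding genes, and also at ac, 34 bp before, and ato, 33 bp before, where the promoters held candidates but no peak. It was sought there after the emc sequence had been seen. The hry promoter window held 1 E-box, CAATTG, and the ase window CAGATG. The hry upstream, net upstream and ac windows held none in the printed 151 bp. With 100 bp to each side, the hry and net upstream windows held 1 each. GC content was 51.7% at the emc promoter and 54.7% and 47.8% at the hry promoter peaks, but 33.8% at the net promoter peak. It was 28.9% at the ase peak, and the median over all peaks, at promoters or elsewhere, was 38.8%.

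Among related genes, each matched gene of the HES family list had a peak, most of them in a single cluster. HES family repressors, the relatives of Hairy, with the corepressor gene gro had a peak in the window at 11 of 11 matched genes (exact 95% binomial interval 71.5% to 100%, counting error only), against 52.2% of protein-coding genes. The E(spl) genes among them sit in a cluster and share peaks with each other and with gro. The 11 windows held 19 distinct peaks, so the genes are not independent, although the interval treats them as if they were. E(spl)mgamma-HLH and E(spl)mbeta-HLH, Notch target genes, shared a top peak with a signal of 529. E(spl)mdelta-HLH had 500, 336 bp upstream of its TSS, and E(spl)m3-HLH had 436. Outside the cluster, the neuroblast gene dpn had 4 peaks, and Hey and cwo had 1 each, as had the median gene. The signals at Hey and cwo were low, 142 and 112, where the lowest of the IDR list was 105.

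Other bHLH genes had a peak at 7 of 17 (41.2%, interval 18.4% to 67.1%). The olfactory proneural gene amos had 1 peak, 8198 bp upstream, with a signal of 452. Peaks were also found at twi, crp and HLH54F, with top signals of 310, 287 and 217. These top peaks lay 27695, 18126 and 3388 bp from a TSS of their gene. The proneural genes l(1)sc and tap had none. Of genes that regulate proneural genes or act after them, 13 of 23 had a peak (56.5%, interval 34.5% to 76.8%). The highest signals were at ush, a cofactor of the ac and sc activator Pannier, with 16 peaks and a top signal of 1585, at the homeobox gene ct with 797, at neur, which encodes a ubiquitin ligase of Notch signalling, with 721, and at the repressor gene ttk with 351. No peak was found at pnr, ara or the Brd family genes Brd, Tom and Ocho, and the proneural target gene sens had 2 peaks of low signal, the stronger with 111. The intervals of these lists also give counting error only, and treat genes chosen by name as independent. These lists were described by their counts and not tested.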

How the data were processed

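Chromatin immunoprecipitation libraries of 3 biological replicates were analysed as 1 group, from the regions deposited by the authors on dm6. Per the deposited text notes, the lists of 30000 candidates came from each replicate and from the pooled reads against a control alignment, and were thresholded into the IDR list. No aligner, caller or IDR cutoff is stated (not given in the sources used here). The signal of a region is the authors' enrichment value, which was used only within a list or as a ratio to a replicate's median over the IDR peaks. The 4934 IDR peaks were the pooled regions of highest signal. Depth per sample is unknown.

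The summit was column 2 + column 10 + 1. Genes came from Ensembl release 115 (BDGP6), on the 7 major arms, and sequence from the RefSeq copy of Release 6, whose arms are longer than the end of their last candidate. A replicate listed a region if a candidate overlapped it by 1 bp, and the candidate of highest signal gave its value. The TSS distance is to the nearest annotated TSS of the gene. Motif windows for promoters were centred on the TSS farthest 5′. Of the related genes named, 2 symbols (Side and pcl) had no match. Every peak in a window was named, with the strongest other candidate, and up to 4 genes of each list by signal. Named after their values were seen were dpn, Hey, cwo, sens, the genes without a peak, the ac and sc promoter candidates and the da candidates. The members and lists were chosen with earlier results of these data known. Window counts, recurrence and motif search were tested on simulated data. Python 3.11.15, numpy 2.4.6, pandas 2.3.3, scipy 1.17.1 and matplotlib 3.10.9 were used. The dm3 lists were not used here.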

Additional observations from a re-analysis of the deposited data

How the results depend on the processing

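The number of peaks in the 8 windows moved with the window and the threshold: 13 became 7 within 5 kb, 31 within 20 kb and 8 among peaks above the median signal. Without replicates 1, 2 and 3 in turn, keeping peaks among the strongest candidates of both others, it was 8 to 9. With overlapping regions counted once it was 12, and hry had 3 peaks in place of 4. The members with a peak went from 5 to 3 within 5 kb, above the median signal and without any 1 replicate (3 each time); the 3 were emc, hry and net, and ac and ase were those lost. Within 20 kb it was 7, with ato and da gaining 1 peak each. The share of protein-coding genes with a peak, 52.2%, was 37.0% within 5 kb, 70.4% within 20 kb, 36.6% above the median signal, and 39.4% to 41.1% without a replicate. Pooled candidates in the windows, 65, were 35 within 5 kb and 126 within 20 kb.

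Of the 8 peaks among the strongest candidates of all 3 replicates, 1 remained when the overlap had to cover at least 50% of both regions, since replicate regions are broader than many pooled ones, and 5 with the replicate lists cut to 50%. Of the 13 peaks, with 50 bp in place of 100 bp to each side of the summit, CANNTG was found at 2 in place of 7, GAGAG at 2 in place of 5 and CAGCTG at 0 in place of 1. No paired analysis was possible because there is only 1 group. Depth is unknown, so a member without a peak is one not detected in these lists.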
